A study of Mus musculus with 6 samples.

Results

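The Hox clusters and other homeobox genes that pattern the skeleton were examined in MC3T3-E1, an established mouse line of bone-forming precursor cells derived from the calvaria, the vault of the skull. Members were all genes with a symbol of the form Hoxa, Hoxb, Hoxc or Hoxd and a number, of the Prrx, Alx, Lhx, Irx, Pitx, Meis and Pbx families and that of Six2, or Shox2, taken from probe sets annotated with 1 symbol. They numbered 68 of 22180 genes, 36 in the Hox clusters and 32 outside them. For each gene the probe set with the highest mean over all arrays was used. Some genes of these families are not analysed here. Members were set by symbol and not by a measured difference between groups, though with earlier results of these data known.

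Hox genes lie in 4 clusters, are switched on in an order that follows their place in the cluster, and give cells of the trunk and limbs an address along the body axis. The mesenchyme that builds the face and the skull vault forms in front of the Hox domain, and in it other homeobox genes, among them genes of the Alx, Irx, Prrx and Lhx families and Six2, mark position. Pbx and Meis proteins are homeodomain cofactors that bind DNA together with Hox proteins and also act without them.

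Total RNA of 6 samples was measured on Affymetrix arrays. Once confluent, both groups were kept for 14 days in medium that induces osteoblast differentiation, with ascorbic acid at 50 µg/ml and β-glycerophosphate at 10 mM. The 3 samples named NU7441 1 to 3 also received 1 µM NU7441, an inhibitor of the catalytic subunit of DNA-dependent protein kinase, and the 3 named DMSO 1 to 3 its vehicle. All samples came from 1 established line, and the labels do not say whether replicates were separate cultures. The p-values therefore cover the spread of these samples alone, which may be technical. No allele or transgene is named for either group.

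To judge which members gave a signal, each was set against 1373 olfactory and vomeronasal receptor genes of the same array, which belong to sensory neurons. The receptor level was their 95th percentile, 6.07 to 6.20 over the arrays, and a stricter level was their 99th percentile, 7.08 to 7.29. Above the first in all 6 arrays lay 46 of the 68 members, 67.6%, against 57.5% of all genes, and above the second 21 members, 30.9%, against 42.9% of all genes. The 95th percentile was a low bar for homeobox genes. Of 42 other homeobox genes, largely of neural, sensory, gut, endocrine and germ cells, 20 were above the receptor level, 47.6%. The median of the 42 was 6.34, compared with 3.89 for the receptors. This list was drawn up after the data were seen. It also holds Evx1, Evx2, Uncx, Lbx1 and Isl1, so it is not free of genes of the trunk and limbs. The 95th percentile of these 42 genes was 7.3001 to 7.56, and 20 members lay above it in all arrays, the same as above the stricter level except for Hoxa5, which passed in 5 of 6. Because probe sets differ in their response, none of the values ranks the amounts of different transcripts.

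The values are on the log2 scale, as deposited, and precision is limited by there being 6 arrays. Medians over all genes lay between 6.77 and 6.82, and correlations between arrays between 0.992 and 0.996. The line expressed markers of the cell type on its label. Of 12 osteoblast markers, 12 were above the receptor level in all arrays and 10 above the stricter level, among them Sp7, Alpl and Ibsp. Of the markers of other cell types, 0 of 7 adipocyte, 0 of 8 skeletal muscle, 0 of 6 endothelial, 0 of 7 neuron and 0 of 5 epithelial genes were above the stricter level in all arrays. Of 7 macrophage genes 1 was, Cd68, and of 8 chondrocyte genes 4 were, Sox9, Col2a1, Hapln1 and Col11a2. The other chondrocyte genes, Acan, Col9a1, Matn1 and Matn3, were below the first level in all arrays. In whole cultures, fewer cells of a type and less RNA per cell cannot be told apart.

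The Hox genes as a set were mostly low, and their shares above either level were near those of the 42 other homeobox genes. Of 36 Hox members 19, or 52.8%, were above the receptor level in all arrays, where 47.6% of the other homeobox genes were, and 4, or 11.1%, were above the stricter level, as were 3 of those 42 genes, or 7.14%. The 4 Hox genes were Hoxa5 and Hoxa6, which are neighbours in their cluster, and Hoxc6 and Hoxc8, between which no other Hox member lies. All 4 belong to the middle of their clusters and are known from the neck and thorax of the embryo. None of 10 Hoxb and none of 8 Hoxd members was above the stricter level in all arrays.

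Hoxa6, which helps to set the identity of vertebrae, was at 8.24, 8.12 and 8.21 in DMSO 1 to 3 and at 8.23, 8.29 and 8.19 in NU7441 1 to 3. Hoxa5, which acts at the neck to thorax boundary and in the lung, was at 7.75, 7.46 and 7.52 in DMSO 1 to 3 and at 7.64, 7.55 and 7.75 in NU7441 1 to 3. The groups overlapped in both genes. Hoxc6, a gene of the thoracic region and the forelimb level, was at 8.06, 7.92 and 8.11 in DMSO 1 to 3 and at 8.14, 8.31 and 8.46 in NU7441 1 to 3. Its 3 NU7441 values all lay above the 3 DMSO values. Hoxc8, a regulator of thoracic vertebrae and of motor neurons, was at 7.44, 7.63 and 7.94 in DMSO 1 to 3 and at 7.44, 7.76 and 7.98 in NU7441 1 to 3. In Hoxc8 the replicate numbered 1 was lowest and that numbered 3 highest in both groups, and the groups overlapped.

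Next to these genes stood Hoxa2 and Hoxa4. Hoxa2, which specifies the second pharyngeal arch, was at 7.298, 7.13 and 7.21 in DMSO 1 to 3 and at 7.33, 7.20 and 7.32 in NU7441 1 to 3, above the stricter level in 4 arrays. Hoxa4 was at 7.12, 6.98 and 7.19 in DMSO 1 to 3 and at 7.10, 7.09 and 7.35 in NU7441 1 to 3, above it in 1 array. Hoxa3, which lies between them, was not above the receptor level in any array, with means of 6.01 ± 0.10 in DMSO and 5.98 ± 0.12 in NU7441 (SD, n = 3 each). Along the Hoxa cluster the members above the level were thus Hoxa2, the 4 neighbours Hoxa4 to Hoxa7, and, past Hoxa9, Hoxa10 and Hoxa13.

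The other Hoxa members above the receptor level were below the stricter one in all arrays. Hoxa7 was at 6.62, 6.61 and 6.74 in DMSO 1 to 3 and at 6.70, 6.86 and 6.56 in NU7441 1 to 3. Hoxa10, a gene of the lumbar region and the thigh, was at 6.76, 6.84 and 6.71 in DMSO 1 to 3 and at 7.09, 6.88 and 6.68 in NU7441 1 to 3, and Hoxa13, of the hand and foot plate, at 6.43, 6.22 and 6.39 in DMSO 1 to 3 and at 6.31, 6.45 and 6.44 in NU7441 1 to 3. In each of these the groups overlapped. Hoxa9 was below the receptor level in every array, at 5.61 ± 0.0055 in DMSO and 5.51 ± 0.16 in NU7441.

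Of the Hoxb cluster only Hoxb5 and Hoxb9 were above the receptor level in all 6 arrays. Hoxb5, active in the neck and in the enteric nervous system, was at 6.90, 6.92 and 6.92 in DMSO 1 to 3 and at 6.91, 7.01 and 6.87 in NU7441 1 to 3, and its second probe set was at 6.85, 6.71 and 6.86 in DMSO and 6.79, 6.77 and 6.95 in NU7441. Hoxb9 was at 6.51, 6.39 and 6.61 in DMSO 1 to 3 and at 6.49, 6.79 and 6.65 in NU7441 1 to 3. Both genes had overlapping groups. Hoxb1, of the hindbrain, was above the level in 4 arrays, with means of 6.14 ± 0.18 in DMSO and 6.22 ± 0.078 in NU7441. The other 7 Hoxb members were above it in at most 1 array, and Hoxb2 had the lowest mean of all members, 4.64 over the 6 arrays.

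Besides Hoxc6 and Hoxc8, the Hoxc members above the receptor level were Hoxc4, Hoxc9, Hoxc10, Hoxc12 and Hoxc13. Hoxc4 was at 6.72, 6.46 and 6.74 in DMSO 1 to 3 and at 6.65, 6.66 and 7.05 in NU7441 1 to 3. Hoxc9, a gene of the lower thorax, was at 6.58, 6.60 and 6.77 in DMSO 1 to 3 and at 6.60, 6.66 and 6.99 in NU7441 1 to 3. In both, NU7441 3 was the highest array and the groups overlapped. Hoxc10 was at 6.38, 6.28 and 6.45 in DMSO 1 to 3 and at 6.42, 6.43 and 6.47 in NU7441 1 to 3. Hoxc12 was at 6.22, 6.19 and 6.25 in DMSO 1 to 3 and at 6.30, 6.49 and 6.23 in NU7441 1 to 3. Hoxc13, which hair and nail require, was at 6.82, 6.92 and 7.23 in DMSO 1 to 3 and at 6.86, 6.82 and 7.13 in NU7441 1 to 3. The arrays numbered 3 were the highest in Hoxc13, while its groups overlapped. Hoxc5 and Hoxc11 were above the level in 1 and 0 arrays.

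In the Hoxd cluster, Hoxd8, Hoxd10 and Hoxd12 were above the receptor level in all arrays. Hoxd8 was at 6.68, 6.71 and 6.74 in DMSO 1 to 3 and at 6.71, 6.71 and 6.77 in NU7441 1 to 3. Hoxd10 was at 6.41, 6.27 and 6.35 in DMSO 1 to 3 and at 6.36, 6.52 and 6.57 in NU7441 1 to 3. Hoxd12, a gene of the digits, was at 6.91, 6.58 and 6.55 in DMSO 1 to 3 and at 6.84, 6.75 and 6.71 in NU7441 1 to 3. All 3 had overlapping groups and lay below the stricter level in every array. Hoxd13, another gene of the digits, was above the level in 0 arrays, as were Hoxd3, Hoxd9 and Hoxd11, and Hoxd1 was above it in 1.

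**Figure D1:**
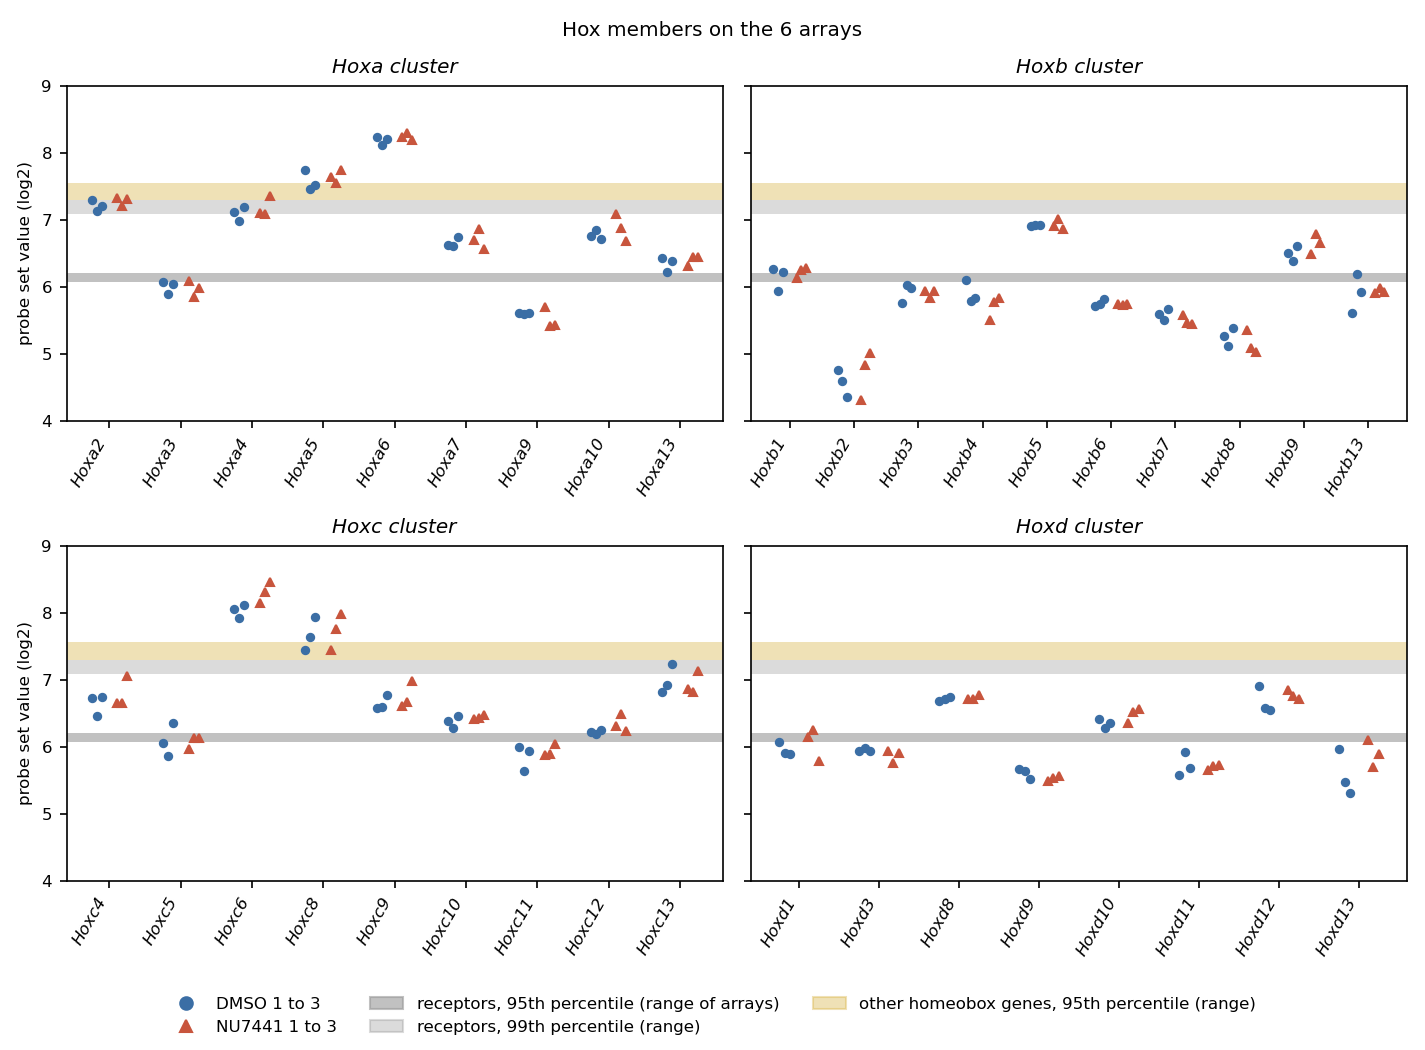
Value of each Hox member (log2, vertical axis) in DMSO 1 to 3 (circles) and NU7441 1 to 3 (triangles), by cluster and gene number (horizontal axis); bands give the range over the arrays of the receptor level, of its stricter form and of the 95th percentile of 42 other homeobox genes. Hoxa5, Hoxa6, Hoxc6 and Hoxc8 lay above the stricter level in all 6 arrays, and no Hoxb or Hoxd member did.

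Outside the Hox clusters more members were high. Of 32, 27 were above the receptor level in all arrays and 17, or 53.1%, above the stricter one, which was also 17 against the other homeobox genes. The 17 were Prrx1, Prrx2, Alx1, Alx4, Shox2, Six2, Six4, Six5, Irx1, Irx2, Irx3, Irx5, Lhx6, Meis1, Meis2, Meis3 and Pbx3. A share above the level of 53.1% outside the clusters and 11.1% within them describes these probe sets, and was not tested.

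Prrx1 and Prrx2 are paired-related genes of craniofacial and limb mesenchyme. Prrx1 had the highest mean of all members, at 12.70, 12.45 and 12.51 in DMSO 1 to 3 and at 12.52, 12.44 and 12.52 in NU7441 1 to 3. Prrx2 was at 9.78, 9.74 and 9.66 in DMSO 1 to 3 and at 9.84, 9.68 and 9.60 in NU7441 1 to 3. The groups overlapped in both. Alx1 and Alx4 mark frontonasal mesenchyme, and loss of ALX4 in people leaves openings in the parietal bones. Alx1 was at 10.15, 10.18 and 10.05 in DMSO 1 to 3 and at 10.11, 10.08 and 10.10 in NU7441 1 to 3, a range of 0.13 over the arrays, and Alx4 at 8.43, 8.29 and 8.31 in DMSO 1 to 3 and at 8.37, 8.31 and 8.38 in NU7441 1 to 3.

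In the family of Six2, which encodes homeodomain factors of cranial placodes, muscle, kidney and head mesenchyme, Six2 was highest in value at 10.60 ± 0.10 in DMSO and 10.61 ± 0.10 in NU7441. The means of Six4 were 7.89 ± 0.092 in DMSO and 7.95 ± 0.10 in NU7441, and those of Six5 8.43 ± 0.15 in DMSO and 8.40 ± 0.16 in NU7441. Six3 and Six6, the genes of forebrain and eye, were at 6.44 ± 0.10 in DMSO and 6.64 ± 0.12 in NU7441 and at 6.70 ± 0.13 in DMSO and 6.74 ± 0.015 in NU7441, above the receptor level and below the stricter one in every array. Six2, Six4 and Six5 were thus above the stricter level in all arrays, and Six3 and Six6 in none.

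The Irx genes form clusters of 3, Irx1, Irx2 and Irx4 in one and Irx3, Irx5 and Irx6 in the other. In each cluster 2 members were high and 1 was low. Irx3 and Irx5, which are required together in the limb bud and whose human counterpart IRX5 is mutated in a syndrome of the face, were at 9.73 ± 0.033 in DMSO and 9.87 ± 0.025 in NU7441 and at 10.01 ± 0.12 in DMSO and 10.11 ± 0.07 in NU7441. Irx6 was at 5.59 ± 0.08 in DMSO and 5.77 ± 0.11 in NU7441, above the receptor level in 0 arrays. In the other cluster the means of Irx1 were 8.58 ± 0.085 in DMSO and 8.40 ± 0.072 in NU7441, and those of Irx2 9.32 ± 0.20 in DMSO and 9.22 ± 0.059 in NU7441. Irx4, a gene of the heart ventricle, was at 6.28 ± 0.14 in DMSO and 6.35 ± 0.10 in NU7441, below the stricter level in every array.

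Of 8 Lhx members only Lhx6, which patterns the jaw and marks forebrain interneurons, was above the stricter level, at 7.70 ± 0.064 in DMSO and 7.74 ± 0.06 in NU7441. Its partner in the jaw, Lhx8, had means of 5.54 ± 0.16 in DMSO and 5.37 ± 0.12 in NU7441 and was above the receptor level in 0 arrays. Lhx2, Lhx4 and Lhx9 were above the receptor level only, and Lhx1, Lhx3 and Lhx5, genes of kidney, pituitary and neural tissue, were above it in 0 arrays. Shox2, a gene of the upper limb segment, the palate and the sinus node, was at 8.05 ± 0.12 in DMSO and 7.94 ± 0.13 in NU7441. Pitx1, which marks the hindlimb and the lower jaw, had means of 6.51 ± 0.085 in DMSO and 6.399 ± 0.04 in NU7441, and Pitx3, of lens and midbrain, of 6.63 ± 0.13 in DMSO and 6.69 ± 0.013 in NU7441, both below the stricter level in all arrays.

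All 3 Meis members were above the stricter level. Meis2, required in cranial neural crest, was at 9.97 ± 0.12 in DMSO and 9.93 ± 0.12 in NU7441, Meis1 at 8.36 ± 0.044 in DMSO and 8.40 ± 0.085 in NU7441 and Meis3 at 8.24 ± 0.066 in DMSO and 8.22 ± 0.044 in NU7441. Of the Pbx genes, Pbx3 was above it, at 8.95 ± 0.069 in DMSO and 9.03 ± 0.087 in NU7441, while Pbx2 and Pbx4 were at 6.42 ± 0.032 in DMSO and 6.51 ± 0.043 in NU7441 and at 6.71 ± 0.095 in DMSO and 6.79 ± 0.084 in NU7441.

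**Figure D2:**
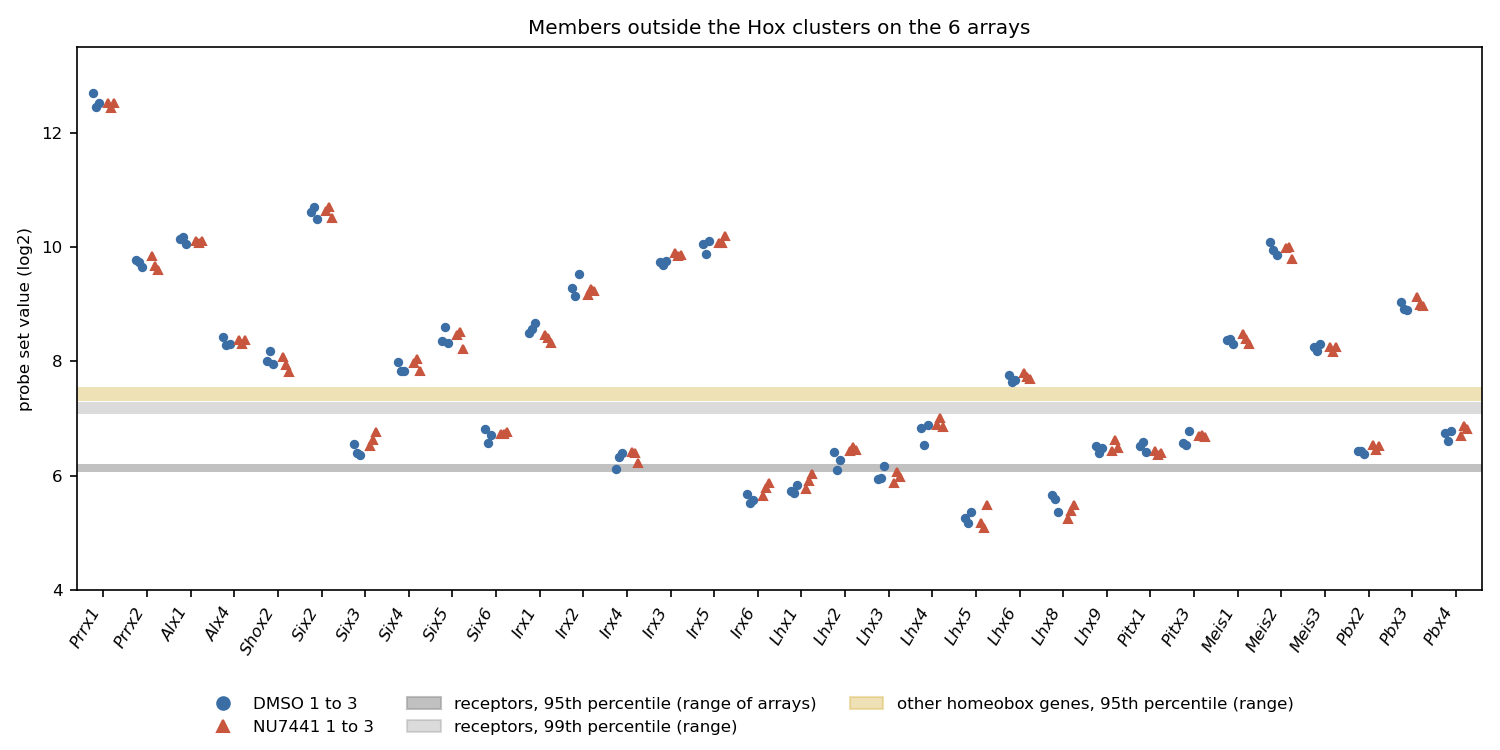
Value of each member outside the Hox clusters (log2, vertical axis) in DMSO 1 to 3 (circles) and NU7441 1 to 3 (triangles), grouped by family (horizontal axis), with the same bands for the receptor level, its stricter form and the other homeobox genes. Prrx1, Six2, Alx1 and Irx5 had means above 10, and Irx6, Lhx1, Lhx3, Lhx5 and Lhx8 lay below the receptor level in all 6 arrays.

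Windows of 300 bases at gene starts, 250 before and 50 after, were held for 44 of the 68 members in RefSeq's promoter table (GRCm38.p6), and the first listed per gene was used. Members had more CpG than genes at large, with a median ratio of observed to expected CpG of 0.66 against 0.39 over 27025 genes and a median GC content of 60.7% against 52.7%. The ratio was 0.70 for the 14 members above the stricter level that had a window and 0.60 for the 30 others. The bases before the start of 3 members are shown because they hold from few to many CpG. They belong to Prrx1 and Hoxa6, which had the highest signals outside and within the Hox clusters, and to Six2. Capitals mark matches to 5 motifs, each searched on both strands. They were the TATA box, as TATAAA, and the CCAAT box, as CCAAT. The Meis type site was searched as TGACAG, the joint site of Hox and Pbx as TGATNNAT, and the homeodomain core as TAATTA. The stretches lie on the minus strand of GRCm38.p6, at chr1:163313651-163313900 for Prrx1, at chr17:85688255-85688504 for Six2 and at chr6:52208673-52208922 for Hoxa6.
Prrx1: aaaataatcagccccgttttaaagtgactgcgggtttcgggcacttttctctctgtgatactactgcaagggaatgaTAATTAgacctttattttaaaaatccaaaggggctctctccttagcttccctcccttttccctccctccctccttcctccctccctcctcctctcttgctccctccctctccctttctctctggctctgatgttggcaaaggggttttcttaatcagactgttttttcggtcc
Six2: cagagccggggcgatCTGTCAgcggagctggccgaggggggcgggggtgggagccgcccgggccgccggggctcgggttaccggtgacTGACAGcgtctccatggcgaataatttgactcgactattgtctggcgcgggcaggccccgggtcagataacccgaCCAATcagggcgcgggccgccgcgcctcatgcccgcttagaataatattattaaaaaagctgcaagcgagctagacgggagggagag
Hoxa6: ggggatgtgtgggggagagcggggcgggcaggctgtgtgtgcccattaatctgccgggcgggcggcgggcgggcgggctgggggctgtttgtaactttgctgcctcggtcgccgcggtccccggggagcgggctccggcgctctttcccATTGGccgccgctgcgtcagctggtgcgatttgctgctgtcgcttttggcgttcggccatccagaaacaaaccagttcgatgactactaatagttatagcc
Each is written 5′ to 3′ on the gene's strand. The Prrx1 stretch held 4 CpG in 250 bases and 1 TAATTA, 173 bases before the start. The Six2 stretch held 26 CpG, a CCAAT and 2 matches to TGACAG, 1 on each strand, and that of Hoxa6 24 CpG and 1 CCAAT on the opposite strand. Over members with a window, CCAAT was found in 52.3% against 37.9% of all genes, and the TATA box in 11.4% against 14.2%. The Meis type site was found in 18.2% against 19.3%, the joint site of Hox and Pbx in 9.09% against 9.04% and the homeodomain core in 4.55% against 5.31%. These are counts of letters in 300 bases, not sites.

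Setting the NU7441 samples against those with DMSO asks which transcripts change when this kinase is inhibited during differentiation. No member passed the test. At the threshold of an adjusted p under 0.05, limma called 0 of 22180 genes, 0%, and 0 of 68 members. An unadjusted p under 0.05 was reached by 2 members, Hoxc6 higher and Irx1 lower, and by 6.79% of all genes, 3.49% higher and 3.3% lower. With the replicate number as a block there were again 2 such members, Hoxc6 and Hoxd13, against 9.37% of all genes, and 0 calls. The number of such members ranged from 0 to 7 when 1 array was left out. The share of all genes in those fits is not given here, so this range does not describe the members alone. Members whose groups did not overlap numbered 6, where 12.8% of all genes had such groups. They were 4 higher, Hoxc6, Irx3, Lhx2 and Pbx2, and 2 lower, Hoxd3 and Irx1, against 6.13% and 6.64% of all genes. Neither share of members was above that of all genes.

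Hoxc6 had a mean of 8.03 ± 0.10 in DMSO and 8.302 ± 0.16 in NU7441 (SD, n = 3 each), a log2 difference of 0.27 (SE 0.10), with a 95% interval of 0.04 to 0.51, an unadjusted p of 0.0296 and an adjusted p of 0.711 in limma. Irx1 was at 8.50, 8.57 and 8.67 in DMSO 1 to 3 and at 8.46, 8.41 and 8.32 in NU7441 1 to 3, a difference of -0.18 (SE 0.08) with an unadjusted p of 0.0467 and an adjusted p of 0.733 in limma. All 3 DMSO values of Irx1 lay above the 3 of NU7441. Irx3 was at 9.74, 9.69 and 9.75 in DMSO 1 to 3 and at 9.89, 9.84 and 9.87 in NU7441 1 to 3, a difference of 0.14 (SE 0.06) with a limma adjusted p of 0.747. The second, dimmer probe set of Irx3 differed by 0.17 (SE 0.08). Their cluster neighbours differed by -0.10 (SE 0.11) for Irx2 and by 0.10 (SE 0.08) for Irx5, with overlapping groups.

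The other members with the smallest p among those higher with NU7441 were Lhx2, Six3, Irx6, Hoxd13, Hoxd10 and Lhx1, none of them above the stricter level. Lhx2 was at 6.41, 6.09 and 6.28 in DMSO 1 to 3 and at 6.44, 6.50 and 6.45 in NU7441 1 to 3, a difference of 0.20 (SE 0.09), and its groups did not overlap. Six3 was at 6.56, 6.41 and 6.36 in DMSO 1 to 3 and at 6.52, 6.62 and 6.77 in NU7441 1 to 3, a difference of 0.20 (SE 0.09). Irx6 was at 5.68, 5.52 and 5.58 in DMSO 1 to 3 and at 5.65, 5.78 and 5.87 in NU7441 1 to 3, a difference of 0.18 (SE 0.08). Six3 and Irx6 had overlapping groups. Hoxd13 had the largest difference of all members over the 6 arrays, 0.31 (SE 0.18), which was 0.50 without DMSO 1 and, without DMSO 3, 0.18 against 0.31 for Hoxc6. It had values of 5.96, 5.47 and 5.31 in DMSO 1 to 3 and at 6.09, 5.69 and 5.88 in NU7441 1 to 3. Its values spread over 0.79 within the 6 arrays, the widest range of any member, and its 95% interval was -0.11 to 0.73. Hoxd10 differed by 0.14 (SE 0.08), and Lhx1, at 5.73, 5.70 and 5.83 in DMSO 1 to 3 and at 5.77, 5.91 and 6.03 in NU7441 1 to 3, by 0.15 (SE 0.09). From Lhx2 to Lhx1 the adjusted p in limma lay between 0.755 and 0.794.

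Among those lower with NU7441, Hoxb4, Lhx8, Pitx1, Hoxd3, Hoxb7, Hoxd9 and Shox2 followed Irx1. Hoxb4 was at 6.10, 5.78 and 5.84 in DMSO 1 to 3 and at 5.51, 5.78 and 5.83 in NU7441 1 to 3, a difference of -0.20 (SE 0.12). Lhx8 was at 5.66, 5.598 and 5.37 in DMSO 1 to 3 and at 5.25, 5.38 and 5.49 in NU7441 1 to 3, a difference of -0.17 (SE 0.10). DMSO 1 was the highest array in both genes, and the groups overlapped. Pitx1 was at 6.52, 6.59 and 6.42 in DMSO 1 to 3 and at 6.44, 6.36 and 6.403 in NU7441 1 to 3, a difference of -0.11 (SE 0.07). Hoxd3 was at 5.94, 5.98 and 5.94 in DMSO 1 to 3 and at 5.93, 5.76 and 5.90 in NU7441 1 to 3, a difference of -0.09 (SE 0.07), and its groups were close but did not overlap. Hoxb7 was at 5.59, 5.50 and 5.67 in DMSO 1 to 3 and at 5.58, 5.46 and 5.45 in NU7441 1 to 3 and Hoxd9 at 5.66, 5.63 and 5.52 in DMSO 1 to 3 and at 5.49, 5.53 and 5.56 in NU7441 1 to 3, differing by -0.09 (SE 0.08) and -0.08 (SE 0.07). Shox2 was at 8.01, 8.18 and 7.95 in DMSO 1 to 3 and at 8.07, 7.93 and 7.81 in NU7441 1 to 3, a difference of -0.11 (SE 0.10). Of these 7 only Shox2 was above the stricter level, and their adjusted p in limma lay between 0.794 and 0.852. Of the 16 members named for their p, 11 moved by over 1.5 times when some array was left out, all but Hoxc6, Irx3, Irx6, Hoxd10 and Irx1. Hoxb4 was at -0.11 without DMSO 1 or without NU7441 1, Shox2 at -0.04 and Lhx2 at 0.12 without DMSO 2, and Hoxd3 at -0.04 without NU7441 2.

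Among members with high signals, Prrx1 differed by -0.06 (SE 0.08), Alx1 by -0.03 (SE 0.06), Six2 by 0.01 (SE 0.09) and Meis2 by -0.04 (SE 0.09), and their 95% intervals were -0.25 to 0.13, -0.18 to 0.12, -0.19 to 0.22 and -0.26 to 0.18. Over all 68 members the interval stayed within 1 log2 unit, a 2-fold change in signal, on either side, as it did for 22001 of 22180 genes. For 65 members it stayed within 0.5, the others being Hoxd13, Hoxb2 and Hoxc6. For probe sets near the receptor level the signal may not follow the transcript, so such an interval bounds the array signal only.

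**Figure D3:**
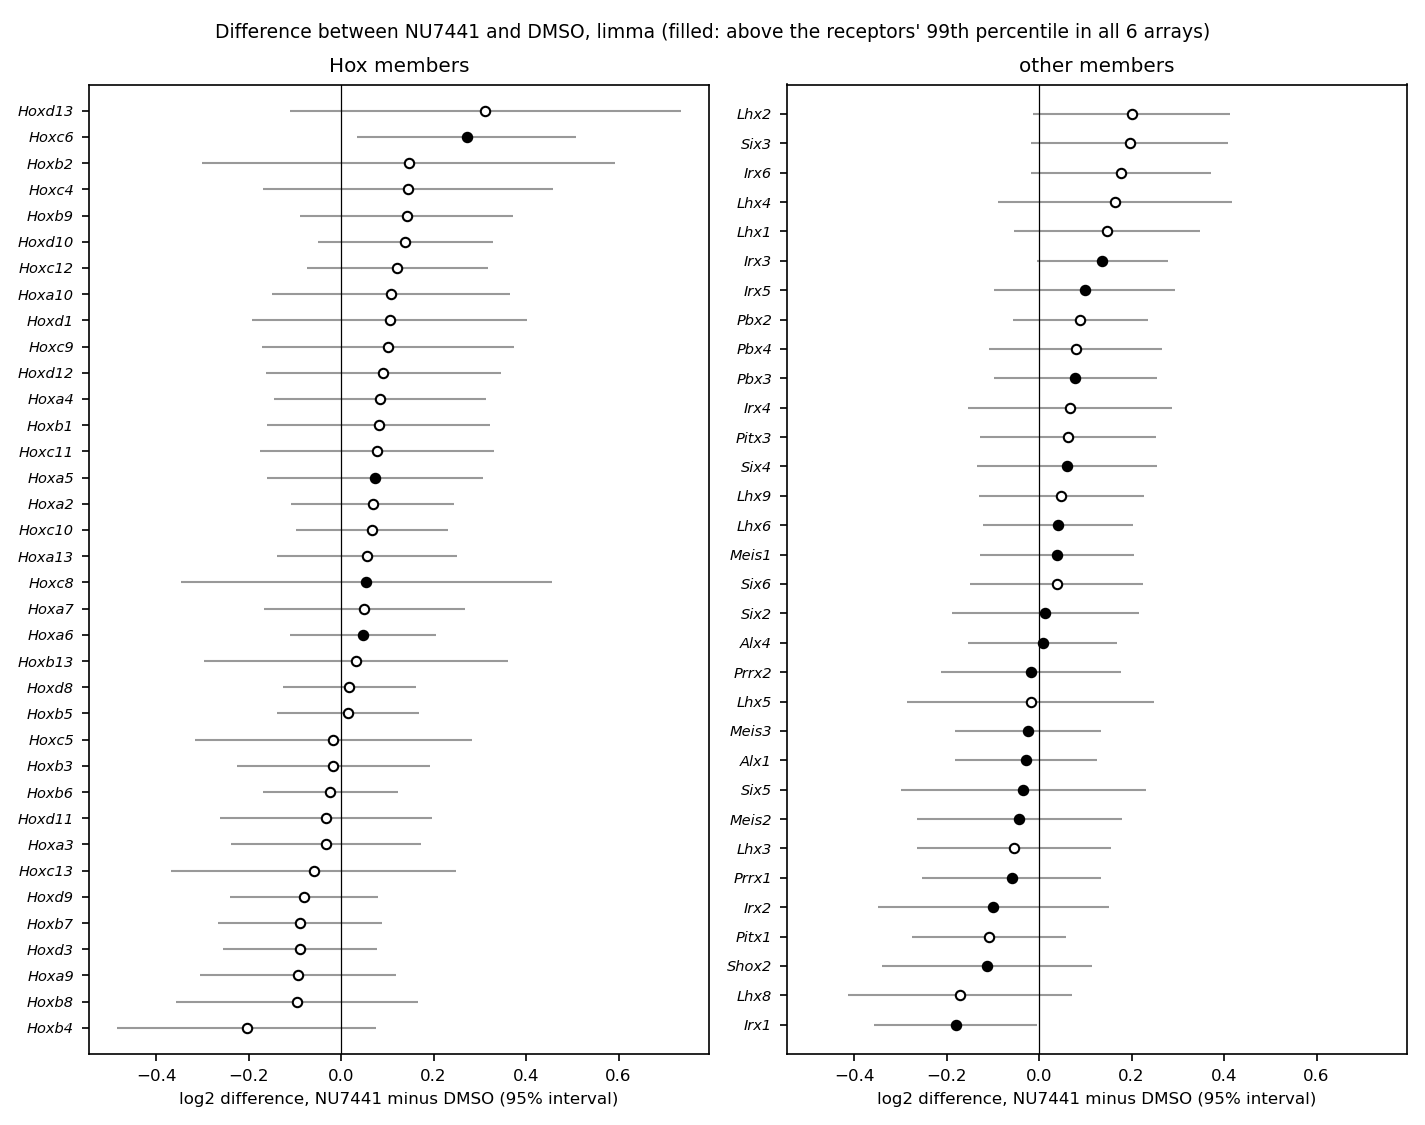
Log2 difference of each member, NU7441 minus DMSO (horizontal axis), with its 95% interval from limma (lines), for Hox members and other members (vertical axes); filled points are members above the stricter receptor level in all 6 arrays. Intervals of 66 of 68 members include 0, the others being Hoxc6 at 0.27 and Irx1 at -0.18.

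As a set, 43 members were higher and 25 lower with NU7441, where 51.3% of all genes were higher, and the median difference was 0.05 against 0.0036. In the Hox clusters 24 of 36 were higher, with a median of 0.06, and outside them 19 of 32, with a median of 0.04. The size of this shift changed when single arrays were left out. Against the gene's mean over the arrays, the median of members was -0.08 in DMSO 2, while the remaining 5 arrays lay between -0.01 and 0.02. The median of members exceeded that of all genes by 0.0446, by 0.0171 without DMSO 2 and by 0.0236 after quantile normalization, while median centring moved both alike and left 0.0446. The direction also differed with signal. Of the 21 members above the stricter level 12 were higher, with a median of 0.01, and of the 17 of these outside the Hox clusters 8 were, with a median of -0.02. Among all genes above the stricter level 39.4% were higher. Above the receptor level the 2 sets differed in signal, with 74.7% of all genes but 4 of 19 Hox members, 21.1%, also above the stricter level. The 45.1% of all genes above the receptor level that were higher is therefore no like background for Hox members. Outside the Hox clusters, 11 of 15 members not above the stricter level were higher. Of the 19 Hox members above the receptor level 18 were higher. These 18 became 14 of the 19 without NU7441 3, and 17 without DMSO 2, with a median of 0.03. Without NU7441 3, 19 of 36 Hox members were higher, with a median of 0.02.

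Within the groups the Hoxc genes varied together. Of 9 Hoxc members 7 had their highest value in the array numbered 3 both in DMSO and in NU7441, where this held for 15.6% of all genes, 1 of 9 Hoxa, 1 of 10 Hoxb and 1 of 8 Hoxd members. The exceptions were Hoxc11, highest in DMSO 1, and Hoxc12, highest in NU7441 2. The median deviation of the Hoxc members was -0.06, -0.12 and 0.05 in DMSO 1 to 3 and -0.07, 0.03 and 0.16 in NU7441 1 to 3. Without DMSO 3 all 9 Hoxc members were higher with NU7441, with a median of 0.14, and without NU7441 3 there were 5 of 9, with a median of 0.01. The pattern was noticed in the data and was not tested. Median deviations of the osteoblast and chondrocyte markers were also highest in the array numbered 3 of each group. So were the mean levels of the 7 neuron, 5 epithelial and 6 endothelial genes. Those of the adipocyte, skeletal muscle and macrophage genes were not. The pattern was thus not particular to skeletal markers. The median deviation of 8 chondrocyte genes was -0.10, -0.18 and 0.06 in DMSO 1 to 3 and -0.06, 0.07 and 0.09 in NU7441 1 to 3. The mean level of the osteoblast markers was 9.76 to 10.6 in DMSO and 10.2 to 10.9 in NU7441, and their median deviation was -0.50, -0.47 and 0.18 in DMSO 1 to 3 and -0.03, 0.09 and 0.67 in NU7441 1 to 3. Between group means 12 of 12 osteoblast markers were higher with NU7441, where 51.3% of all genes were. In each same-numbered pair 9 of 12 were higher, and this share was not taken over all genes. In limma 0 of the 12 were called. An unadjusted p under 0.05 was reached by 1 of them, where 6.79% of all genes reached it. With the replicate block 0 of the 12 were called, with adjusted p from 0.229 to 0.909. In that fit 7 had an unadjusted p under 0.05, where 9.37% of all genes did. With the block, an intensity trend and a robust prior, chosen after the data were seen, 6 of the 12 were called higher. They were Alpl, Pth1r, Sp7, Phex, Ifitm5 and Ibsp, and the calls over all genes in that fit are given further below. The part of any marker list in the Hoxc values was not tested. Transcripts of neighbouring Hox genes can overlap, so the probe sets of a cluster are not independent.

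DMSO 2 was the lowest DMSO array for many members, 36 of 68 or 52.9%, where it was for 34.7% of all genes. This held for 8 of 9 Hoxa, 6 of 9 Hoxc and 6 of 8 Lhx members. Of the Hoxa members 5 were lowest in the array numbered 2 in both groups, where 12.4% of all genes were. The range over the 6 arrays had a median of 0.30 over members, against 0.32 over all genes, and ran from 0.09 to 0.79. By this measure Hoxc4, Hoxc8 and Hoxc6 varied most among members above the receptor level, by 0.59, 0.54 and 0.54.

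**Figure D4:**
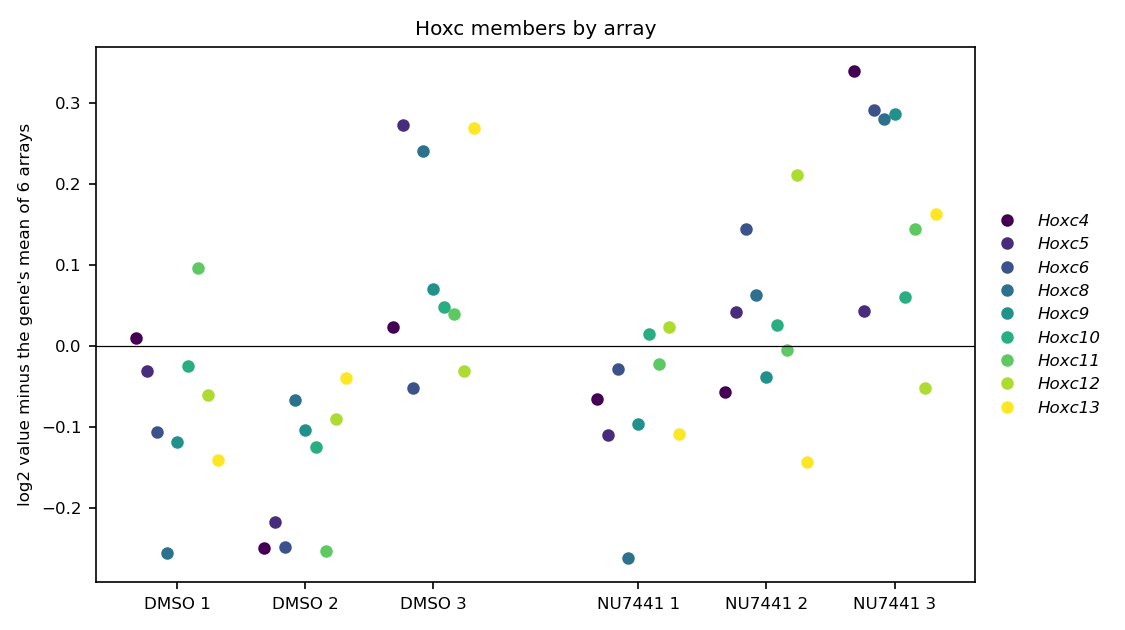
Log2 value of each of the 9 Hoxc members minus its mean over the 6 arrays (vertical axis) in each array (horizontal axis), with 1 colour per gene. In DMSO 3 and NU7441 3 the median deviations were 0.05 and 0.16, the highest of each group.

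Other genes of positional identity were read from lists. Of 35 measured factors of craniofacial and limb position, 18 were above the stricter level in all arrays, 20 were higher and 15 lower with NU7441, and 0 were called in limma. At an unadjusted p under 0.05 there were 3 higher and 2 lower, where 6.79% of all genes had such a p, and with the replicate block there were 9, where 9.37% did. Groups did not overlap for 4 higher and 7 lower, where 12.8% of all genes had such groups. With the block, an intensity trend and a robust prior limma called 1, Osr1, lower with an adjusted p of 0.0433. The smallest p belonged to Barx1, a gene of the jaw and stomach, at 0.27 (SE 0.07), Otx2, of the forebrain and its crest, at 0.23 (SE 0.07), Osr1, of intermediate mesoderm and joints, at -0.23 (SE 0.07), and Emx2, of cortex and scapula, at -0.22 (SE 0.08). The group means of Osr1 were 12.17 in DMSO and 11.94 in NU7441 (limma adjusted p = 0.698). Chosen after their values were seen, the neural crest genes Tfap2b and Pax3 were at 10.06 and 9.33 in DMSO and at 9.88 and 9.34 in NU7441, and Tbx15 and Tbx18, of head, limb and body wall mesenchyme, at 10.12 and 9.69 in DMSO and 10.08 and 9.73 in NU7441. Genes of the limbs and of the face lay on both sides of the stricter level. Tbx4 and Tbx5, of the limbs, and Hand2, Osr2, Barx1 and Tbx22, of the face and palate, were above it in 0 arrays. Lmx1b, of the limb, was above it in 6, as were Dlx2, Dlx5, Gsc, Twist1 and Tfap2a, of the face and skull. In the same list Msx2 was above it in 1 array and Twist2 in 0. All were likewise named after their values were seen, and a division by region was not tested.

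Of 25 measured chromatin regulators of Hox genes, the Polycomb and Trithorax proteins that keep clusters silent or active, 24 were above the stricter level, 11 were higher and 14 lower, and 0 had an unadjusted p under 0.05. Eed, a core Polycomb subunit, differed by -0.15 (SE 0.08), Jarid2 by 0.17 (SE 0.12), Mllt3 by -0.09 (SE 0.07) and Kmt2a, the Trithorax type methyltransferase, by 0.09 (SE 0.07). Of 5 measured cofactor genes related to Meis and Pbx, 2 were higher and 3 lower, again with 0 called, and Mkx, of tendon, differed by 0.21 (SE 0.12), Tgif1 by -0.16 (SE 0.13), Tgif2 by 0.08 (SE 0.07) and Pknox1 by -0.10 (SE 0.10).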

How the data were processed

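The authors deposited 1 log2 value per probe set and array for 41345 probe sets, and the log2 scale was read from the range of the values. How they corrected background, summarised and normalized is not given in the sources used here. Samples were prepared to Affymetrix's specifications, per the labels' protocols. Of the probe sets, 23521 carried a single gene symbol and were named. Another 1814 carried several and 16010 are unnamed here. No further normalization or filter on level was applied, and 0 columns of other samples were present. Entrez numbers of all 68 members were in the RefSeq table.

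The comparison used limma 3.58.1 under R 4.3.3. A linear model with the treatment alone was fitted to every gene, variances were moderated by eBayes, and two-sided p-values of the 22180 genes were adjusted by Benjamini-Hochberg, with 0.05 as the threshold. Adjusted p-values in the text are over all genes. On simulated data with 200 of 22180 genes changed, limma found 97.4% of 2-fold changes but 56% of 1.41-fold ones, and 6.74% of its calls were false, whereas the largest difference of a member was 1.24-fold. The simulated noise was independent between arrays and held no effect of the replicate number, so these shares may not hold for the real arrays. In the real data Fabp4 differed by -0.99 and Phex by 0.97, and limma called neither.

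Members were set by gene symbol alone, but they and the lists were chosen with earlier results of these data known. The rule for named genes was the Hox members above the receptor level in all arrays, the 8 members with the smallest p in each direction, and up to 4 genes per list. Chondrocyte, osteoblast and other marker lists served to check the line. Lists of axial regulators and of noncoding genes of the clusters are described at the end.

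Same-numbered samples deviated together from their group means, with correlations of 0.149 to 0.339 over genes against -0.25 to 0.09 for different numbers. No label states a pairing, so the main fit left the replicate number out, and the replicate block was an alternative. The p-values, SE and intervals are thus unpaired unless the block is named. Other alternatives were quantile normalization, median centring, an intensity trend with a robust prior, array weights, leaving out dim genes, averaging probe sets, other signal levels and leaving out each array. Figures were drawn with matplotlib 3.10.9.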

Additional observations from a re-analysis of the deposited data

How the results depend on the processing

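The test of NU7441 against DMSO called 0 members under each alternative run, and 0 of 22180 genes under each but one. With the replicate block joined to a robust prior with an intensity trend, chosen after the data were seen, limma called 100 genes, 0 of them members. In that fit 4 members had an unadjusted p under 0.05, and the share of all genes with such a p is not given here. With the replicate block alone 2 members had such a p, Hoxc6 (adjusted p = 0.493 in limma) and Hoxd13 (0.503), against 9.37% of all genes, and Irx1 did not. The block changed no call. Leaving out 1 array gave between 0 and 7 members at an unadjusted p under 0.05, and 0 called by limma in each. The share of all genes with such a p in those fits is not given here. The median difference of members stayed between 0.02 and 0.05. The differences of the 16 members named for their p kept their sign under the alternatives that could be run for them, while 11 moved by over 1.5 times without some array. Of these 16, 12 dropped out when only the brighter 50 percent of genes were kept and 1, Lhx8, when the brighter 75 percent were, so those settings gave them no value. Above the receptor level lay 46 members, 21 with the 99th percentile, 25 with the median of all genes and 20 with the 95th percentile of other homeobox genes, a reference chosen after the data were seen. The level decides this count by construction. Signal over background was not measured per probe set, which limits what the low Hox values show.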

Other observations

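Noncoding genes of the Hox clusters were low. Of 7 measured, 3 were above the receptor level in all arrays, Hotair of the Hoxc cluster, Hoxaas3 and Hoxd3os1, and 0 were above the stricter level. The means of Hotair were 6.65 in DMSO and 6.75 in NU7441 and differed by 0.10 (SE 0.07). Mir196a-1, a microRNA gene of the Hoxb cluster, was at 5.61 and 5.37, a difference of -0.24 (SE 0.09) with groups apart, and Mir10b, of the Hoxd cluster, was at 2.97 and 2.89. None was called by limma, the adjusted p of Mir196a-1 being 0.711.

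Of 15 measured regulators of axial position, which include Cdx genes and the enzymes that make and remove retinoic acid, 7 were above the stricter level, 8 were higher and 7 lower with NU7441, and 0 were called by limma. Cdx1, a direct regulator of Hox genes, differed by 0.31 (SE 0.11) with 5 arrays above the receptor level, and Gbx2, of the hindbrain boundary, by 0.17 (SE 0.07). Cyp26b1, which degrades retinoic acid, had means of 7.93 in DMSO and 8.41 in NU7441, which differed by 0.48 (SE 0.27), and Aldh1a3, which makes it, differed by -0.24 (SE 0.16). The groups of Cyp26b1 and Aldh1a3 overlapped.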
